A study of Mus musculus with 12 samples.

Results

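The p200 genes, also called the Ifi200 or PYHIN family, lie in a row on mouse chromosome 1 and are described here in newborn brains with and without the protein kinase KIS. All main probesets of the deposited table whose gene symbol is Aim2, Ifi204, Mnda, Ifi203, Ifi202b or Ifi205 were taken, which gave 44 of the 221417 main probesets with a symbol and 6 of the 17550 symbols. A probeset is a group of short probes, here between 2 and 4, that lie in the same exon or part of an exon. The 6 genes were chosen by their KIS-ko minus wildtype differences in signal, seen in an earlier pass over the same arrays. Their differences between genotypes are therefore given as a description, without a test.

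Total RNA of whole brains of newborn female mice was put on Mouse Exon 1.0 ST arrays of Affymetrix, 1 for each brain. Of the 12 brains, 6 were wildtype (KIS +/+) and 6 were KIS-ko (KIS -/-), and each of 6 litters gave 1 brain of each genotype. KIS-ko newborns carry the mutated allele on both copies of the chromosome, and the line, first kept on a mixed C57Bl/6-129SV background, had been backcrossed repeatedly to C57BL6/N. No animal was treated. The gene for KIS, Uhmk1, lies on the same chromosome as the p200 genes, so that the effect of its loss and that of any chromosome 1 sequence inherited together with the mutated allele cannot be told apart in these groups.

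The p200 proteins are induced by interferons and share a HIN domain, which binds DNA, and most of them also carry a pyrin domain, through which they assemble with other proteins. Interferons act through receptors and the kinases Jak1 and Tyk2 on STAT transcription factors, which then bind short elements in the promoters of responsive genes. In the brain such genes are best known from infection and from microglia, the resident macrophages. The expression of several p200 genes, Ifi202b in particular, is known to differ between inbred mouse strains.

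Promoter sequences were examined first, because an interferon response acts through them. The windows are the 150 bases before the transcription start in RefSeq (assembly GRCm38.p6), written 5′ to 3′ on the strand of the gene. They were found for 5 of the 6 members, and Ifi204 was not matched. The table assigns its probesets called Mnda to a RefSeq transcript whose gene is now named Ifi211. These probesets lie at 2 places, given below, and to which of them this promoter belongs was not determined. Capitals mark the core of an interferon-stimulated response element, GAAA followed by any 2 bases and a second GAAA, or the letters TTCNNNGAA, a gamma-activated site bound by STAT dimers, each searched on both strands and without overlap between them.
Mnda (Ifi211), chr1:173913047-173913196, minus strand: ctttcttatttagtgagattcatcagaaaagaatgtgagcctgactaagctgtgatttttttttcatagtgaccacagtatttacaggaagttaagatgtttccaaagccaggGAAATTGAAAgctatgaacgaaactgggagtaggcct
Ifi203, chr1:173942493-173942642, minus strand: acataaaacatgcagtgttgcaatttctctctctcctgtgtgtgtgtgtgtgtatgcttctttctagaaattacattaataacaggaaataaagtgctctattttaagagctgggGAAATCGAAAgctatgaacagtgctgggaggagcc
Ifi205, chr1:174031756-174031905, minus strand: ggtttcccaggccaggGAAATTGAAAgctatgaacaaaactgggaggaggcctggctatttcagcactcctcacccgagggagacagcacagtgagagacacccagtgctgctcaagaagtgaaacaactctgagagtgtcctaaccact
Ifi202b, chr1:173982845-173982994, minus strand: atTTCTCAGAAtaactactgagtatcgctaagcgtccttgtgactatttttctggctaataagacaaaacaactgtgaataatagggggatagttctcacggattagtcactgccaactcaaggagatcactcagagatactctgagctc
Aim2, chr1:173420454-173420603, plus strand: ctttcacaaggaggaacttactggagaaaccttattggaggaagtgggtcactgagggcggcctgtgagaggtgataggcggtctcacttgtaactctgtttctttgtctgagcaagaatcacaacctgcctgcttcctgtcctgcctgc

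The response element was present in the windows of Mnda, Ifi203 and Ifi205. It began 37 bases before the start in Mnda, 35 in Ifi203 and 134 in Ifi205. Around it Mnda and Ifi205 shared an unbroken run of 25 bases, gccagggaaattgaaagctatgaac, and Ifi203 shared 14 bases with Ifi205. The windows of Ifi202b and Aim2 did not hold it, and a second RefSeq start of Ifi203 did not either. Ifi202b held a gamma-activated site 148 bases before its start. Over all 32851 promoter windows of this length, 1.59% held the first motif and 4.09% the second. These are matches of letters and not binding sites.

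In the deposited table Aim2 lies apart, on the plus strand of chromosome 1 from 175392316 to 175396098, at 3.25 Mb above the last listed base of Uhmk1. The other 5 genes lie on the minus strand within 281 kb, from the first probeset of Ifi204 at 175677462 to the last of Ifi205 at 175958515. These positions are those of the table, whose build is not given in the sources used here, and they cannot be compared with the RefSeq positions of the promoters. The symbol Mnda stands for 2 places. Of its probesets, 5 lie at 175835641 to 175843011, between Ifi204 and Ifi203. The other 5 lie at 175942235 to 175957397, above Ifi202b, and the last of these lies between the 2 probesets of Ifi205. Of the 44 probesets, 18 carry a mark for possible cross-hybridization, and the gene behind their signals is uncertain. Which other sequences they match is not stated in the deposited columns. None of them belongs to Ifi202b or Ifi205, whereas 10 of the 14 probesets of Ifi203 and 6 of the 10 of Mnda are so marked.

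The family was dim in newborn brain. The 5222 probesets placed in introns served as a yardstick, with a median signal of 114 and a 95th percentile of 713. By their mean signals over all arrays 13 of the 44 p200 probesets exceeded this median, and 1, the first of Mnda, exceeded the percentile. That probeset averaged 876 in wildtype and 615 in KIS-ko brains, so that it passed only through its wildtype mean. In Aim2 4 of 5 probesets were above that median, in Mnda 4 of 10, in Ifi203 3 of 14, in Ifi204 1 of 5, in Ifi205 1 of 2 and in Ifi202b 0 of 8. Whole brain was measured, so that fewer cells expressing a gene and less RNA per cell cannot be told apart. Following the methods of the study, probesets were rejected where the SD of a genotype was more than 0.4 of its mean, which left 30 of the 44. The gene value used below is the mean over these probesets of log2(signal + 16), which understates changes of dim genes. Values of different genes rest on different probes and are not compared as levels.

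The genotype labels were checked on Uhmk1. Its gene value averaged 10.97 ± 0.057 over the wildtype and 8.85 ± 0.15 over the KIS-ko littermates (SD, n = 6 each). The 7 measured neuronal marker genes, Stmn2 and Snap25 among them, all exceeded 713, that percentile, by their median signals. By limma with the litter as a block, 1 of 17279 genes (0.00579%) differed at an adjusted p of 0.05, and this gene was Uhmk1. At an unadjusted p of the same size 1065 genes (6.16%) were called. The median difference over all genes was -0.036, and 69.8% of genes were lower in KIS-ko brains. The medians of the arrays lay between 460 and 526.

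Ifi204, Mnda and Ifi203 had lower gene values in the KIS-ko brain of all 6 litters, Ifi202b had higher ones in all 6, and Aim2 and Ifi205 had no common direction. Over all genes, 1.6% were lower and 0.92% were higher in 6 of 6 litters. The differences of Ifi204, Mnda and Ifi203 were the 4th, 5th and 11th lowest of 17279, and that of Ifi202b was the 35th highest. The rank of Ifi202b rests on probesets whose means were all below the median intron control. Differences of -0.4 or lower were found in 3 members and in 0.0694% of all genes, and differences of 0.3 or higher in 1 member and in 0.313% of all genes. These shares and ranks describe the values for which the genes were singled out. The genotypes did not overlap in Ifi203, which was below, and in Ifi202b, which was above. Over all genes, 0.122% lay wholly below and 0.0868% wholly above in KIS-ko brains.

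**Figure D1:**
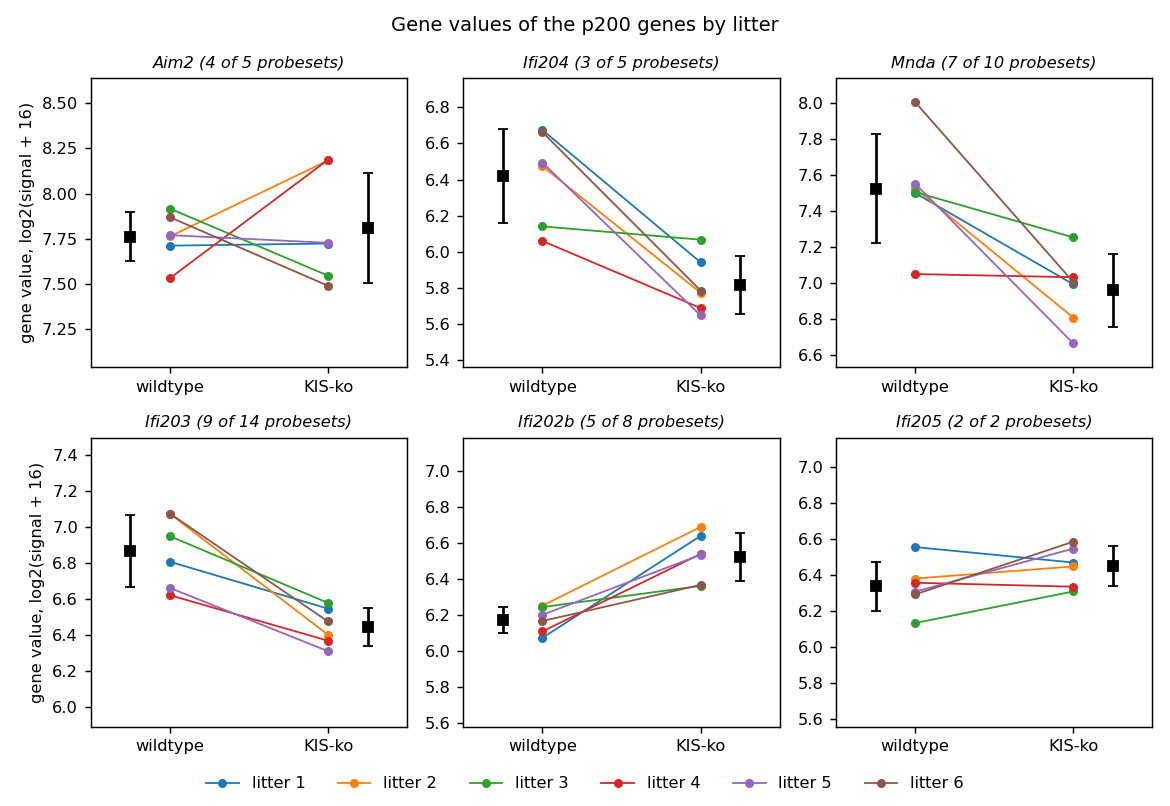
Gene values of the 6 p200 genes on the log2(signal + 16) scale, with a line joining the wildtype and the KIS-ko brain of each litter and black squares for the mean ± SD of 6 brains. All panels have axes of equal length in log2 units. The lines of Ifi204, Mnda and Ifi203 point down in all 6 litters, those of Ifi202b point up, and those of Aim2 and Ifi205 cross.

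Aim2 encodes the cytosolic sensor of double-stranded DNA that recruits the adaptor Pycard and caspase-1 into an inflammasome. Its gene value averaged 7.76 ± 0.14 over the wildtype and 7.81 ± 0.31 over the KIS-ko littermates (SD, n = 6 each). The difference of 0.049 ± 0.42 (SD, n = 6 litters) was well within the spread between litters. The KIS-ko brain was higher by 0.42 in litter 2 and by 0.66 in litter 4, whereas it differed by -0.37 in litter 3 and by -0.38 in litter 6. In litters 1 and 5 the differences were only 0.01 and -0.04. Each of the 5 probesets was lower in 3 litters and higher in 3, and their mean differences lay between -0.23 and 0.14. Its probeset at 175395177 to 175395562 ran from 409 to 533 with a median of 484 in wildtype, and from 423 to 669 with a median of 496 in KIS-ko brains. The KIS-ko arrays were thus more widely spread and covered nearly the whole wildtype range.

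Ifi204, often set beside human IFI16, encodes a nuclear DNA-binding protein that takes part in the sensing of DNA and in the control of cell growth and differentiation. Its gene value, from 3 of 5 probesets, averaged 6.42 ± 0.26 over the wildtype and 5.82 ± 0.16 over the KIS-ko littermates (SD, n = 6 each). The difference was -0.60 ± 0.31 (SD, n = 6 litters), and the litters ranged from -0.88 in litter 6 to -0.07 in litter 3. The groups overlapped through the wildtype brain of litter 4 and the KIS-ko brain of litter 3. All 5 probesets had a lower mean in KIS-ko brains, by -1.22 to -0.35. The probeset at 175685749 to 175685901, open to cross-hybridization, had signals from 122 to 307 with a median of 205 in wildtype. In KIS-ko brains they ran from 62.5 to 154 with a median of 84.2, and the difference was -1.01 ± 0.48 (SD, n = 6), lower in 6 of 6 litters. The probeset at 175679416 to 175679446, which the table marks as matching 1 place, had signals from 94.8 to 161 with a median of 149 in wildtype and from 29.2 to 97.0 with a median of 39.6 in KIS-ko brains. It showed the largest mean difference of the 44 probesets, but the spread among KIS-ko brains led to its rejection. With the median over probesets in place of the mean the gene difference was -0.35, and with probesets matching 1 place only it was -0.40. On its single probeset above the median intron control, the cross-hybridizing one at 175685749, it was -1.01. That probeset passed only through its wildtype mean of 203, since its KIS-ko mean was 92.7, so this value is no independent support.

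Mnda carries the name of the human myeloid cell nuclear differentiation antigen, a nuclear protein of granulocytes and monocytes. Its gene value, from 7 of 10 probesets, averaged 7.52 ± 0.30 over the wildtype and 6.96 ± 0.20 over the KIS-ko littermates (SD, n = 6 each). The difference was -0.56 ± 0.38 (SD, n = 6 litters) and varied widely, from -0.998 in litter 6 and -0.89 in litter 5 to -0.02 in litter 4. The wildtype brain of litter 4 had the lowest wildtype value, 7.05, which lay within the KIS-ko range of 6.66 to 7.25. The first probeset, at 175835641 to 175835669, is marked as matching 1 place. It gave signals from 693 to 1094 with a median of 871 in wildtype brains, and from 570 to 720 with a median of 601 in KIS-ko brains. Only the highest KIS-ko signal exceeded the lowest wildtype one, and the difference was -0.49 ± 0.26 (SD, n = 6), lower in all litters.
The places called Mnda gave similar values on the probesets kept, 5 of 5 at the lower place and 2 of 5 at the upper one. The difference was -0.55 ± 0.43 (SD, n = 6 litters) at the lower place and -0.58 ± 0.34 (SD, n = 6) at the upper one. At the lower place the genotypes overlapped, and the KIS-ko brain was lower in 5 of 6 litters and higher by 0.14 in litter 4. At the upper place they did not overlap, where 0.122% of all genes lay wholly below, and the 2 probesets behind this value are open to cross-hybridization. The only probeset there marked as matching 1 place, at 175942235 to 175942326, was rejected and differed by 0.14. The rejected probeset at 175942377 to 175942403 differed by -0.01. Both were dim, with wildtype means of 7.97 and 19.8. The last Mnda probeset, at 175957364 to 175957397, was rejected for its spread, with a highest KIS-ko signal of 44.8 and a lowest wildtype signal of 49.96. It was the only lower probeset of the 44 without overlap between genotypes, against 0.125% of all main probesets. The 3 other Mnda probesets lower in 6 of 6 litters, beside the first and the last, had mean differences between -0.79 and -0.49. The median over probesets gave the gene a difference of only -0.19.

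**Figure D2:**
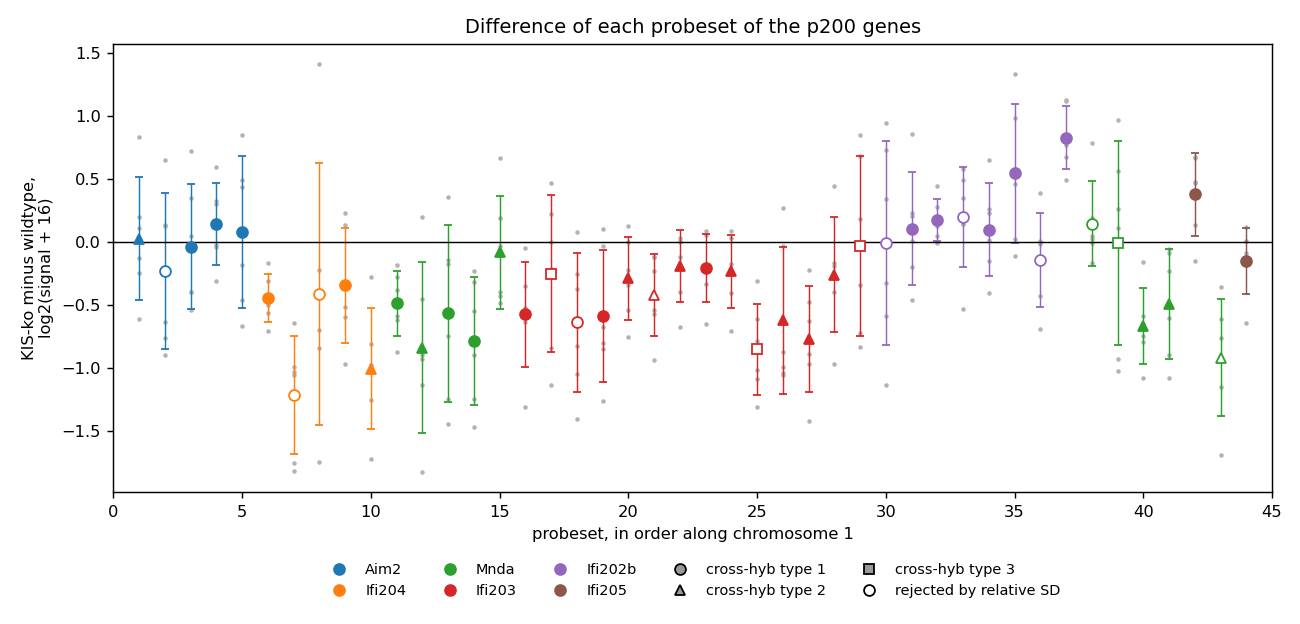
KIS-ko minus wildtype difference of each of the 44 probesets on the log2(signal + 16) scale, in their order along chromosome 1, with coloured symbols for the mean and bars for the SD of 6 litters and grey points for single litters. Symbol shape gives the cross-hybridization type of the table and open symbols mark probesets rejected for their relative standard deviation. The means of Ifi204, Mnda and Ifi203 probesets lie below 0 with 1 exception in Mnda, and the highest mean, at 0.83, is the last probeset of Ifi202b.

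Ifi203 encodes another interferon-inducible nuclear member of the family. Its gene value, from 9 of 14 probesets, averaged 6.86 ± 0.20 over the wildtype and 6.45 ± 0.10 over the KIS-ko littermates (SD, n = 6 each). The difference was -0.42 ± 0.18 (SD, n = 6 litters) and lay between -0.67 in litter 2 and -0.25 in litter 4, which made it the most even of the lower genes. The lowest wildtype value, 6.62, was close to the highest KIS-ko value, 6.58. All 14 probesets had a lower mean in KIS-ko brains, from -0.86 to -0.03, where 65.3% of all main probesets were lower. Of these, 4 were lower in 6 of 6 litters, against 2.09% of all main probesets. The probeset at 175872388 to 175872417, open to cross-hybridization, gave signals from 89.7 to 212 with a median of 147 in wildtype and from 46.0 to 107 with a median of 79.2 in KIS-ko brains. The longest probeset, at 175850883 to 175852406 and marked as matching 1 place, gave signals from 77.1 to 153 with a median of 107 and from 41.4 to 96.8 with a median of 68.6. In both the KIS-ko arrays were shifted down with some overlap. On the 3 probesets above the median intron control the gene difference was -0.25, and dim probesets ranged on both sides of this value.

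In these 3 genes probesets of every cross-hybridization type were lower. Of the 12 probesets of Ifi204, Mnda and Ifi203 that match 1 place, 11 were lower, with a median difference of -0.53. All 17 probesets open to cross-hybridization were lower, with a median of -0.42. The 8 probesets above the median intron control had a median of -0.39 and the 21 below it one of -0.49. Some of the former were above it only through their wildtype means, so that this split is not independent of the genotypes. The mean difference of Ifi204, Mnda and Ifi203 was -0.50, -0.70, -0.23, -0.21, -0.69 and -0.82 in litters 1 to 6. The median difference of all genes in the same litters was -0.046, -0.086, 0.0023, 0.071, -0.052 and -0.11. The mean of the 3 genes was nearest to 0 in litters 3 and 4, where the median of all genes was above 0. This did not hold for each gene, since Ifi203 differed by -0.37 in litter 3 and by -0.26 in litter 1. The part of this shift in the result was not tested beyond other scalings of the arrays. With the arrays centred on their medians the differences were -0.55 for Ifi204, -0.51 for Mnda and -0.36 for Ifi203. After a new quantile normalization they were -0.57, -0.53 and -0.38.

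Ifi205, a further nuclear member induced by interferon, has only 2 probesets, both marked as matching 1 place. Its gene value averaged 6.34 ± 0.14 over the wildtype and 6.45 ± 0.11 over the KIS-ko littermates (SD, n = 6 each), a difference of 0.11 ± 0.15 (SD, n = 6 litters). The probesets pointed in opposite directions. At 175956694 to 175956797 signals ran from 87.3 to 125 with a median of 110 in wildtype and from 110 to 183 with a median of 146 in KIS-ko brains. This difference was 0.37 ± 0.33 (SD, n = 6), higher in 5 of 6 litters. At 175958365 to 175958515 signals were near 35.4 in wildtype and 30.9 in KIS-ko brains as medians, and the difference was -0.15 ± 0.26 (SD, n = 6). The Mnda probeset between them was lower by -0.92 ± 0.47 (SD, n = 6), so that neighbouring probesets differed in sign.

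Ifi202b, which carries HIN domains without a pyrin domain, encodes p202, a protein known to bind DNA and to restrain the Aim2 inflammasome, and it is a candidate gene of a mouse lupus locus on chromosome 1. It was the only member whose gene value was higher in all KIS-ko brains. The value, from 5 of 8 probesets, averaged 6.17 ± 0.072 over the wildtype and 6.52 ± 0.14 over the KIS-ko littermates (SD, n = 6 each). The difference was 0.35 ± 0.17 (SD, n = 6 litters) and lay between 0.12 in litter 3 and 0.57 in litter 1. All 8 probesets are marked as matching 1 place, as are 12 of the 29 probesets of the genes that were lower.
The difference was largest at 1 end of the gene, though not in every probeset there, and all these sizes rest on dim signals. The probeset of highest position, at 175912827 to 175912853, is the nearest to the transcription start of this minus-strand gene. Its signals in wildtype litters 1 to 6 were 48.8, 74.7, 65.2, 70.5, 58.0 and 86.1. In the KIS-ko littermates they were 126, 138, 124, 122, 144 and 127. Every KIS-ko array was above every wildtype array, which held for 0.0524% of all main probesets. On the scale of the gene values the difference was 0.83 ± 0.25 (SD, n = 6). All wildtype signals were below the median intron control of 114 and all KIS-ko signals above it. The size of this difference is therefore uncertain, and it is not read as a fold. The probeset at 175907411 to 175907514 gave signals from 29.5 to 57.2 in wildtype and from 39.5 to 101 in KIS-ko brains, with a difference of 0.54 ± 0.55 (SD, n = 6). The 6 other probesets had differences from -0.15 to 0.19 and overlapped between genotypes. The lowest of them, at 175907530 to 175907563 and rejected for its spread, lies between the 2 higher ones. Without the probeset of highest position the gene difference was 0.23 ± 0.18 (SD, n = 6), higher in 5 of 6 litters, and without the relative standard deviation filter it was 0.22. Of the 8 probesets, 0 exceeded the median intron control by its mean over the 12 arrays.

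**Figure D3:**
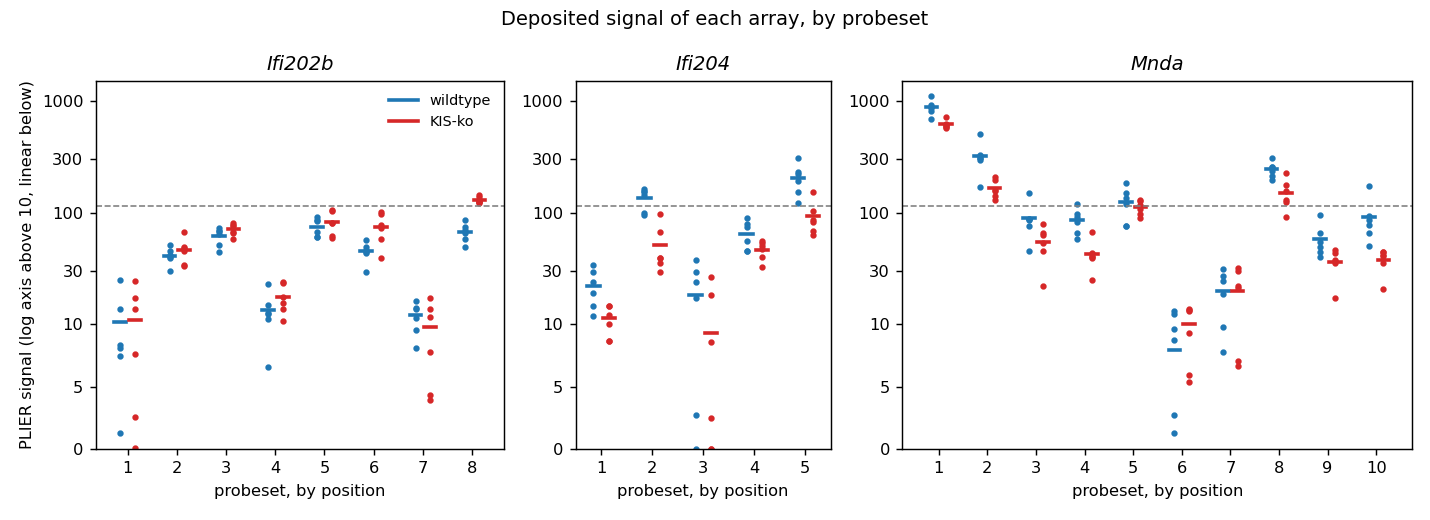
Deposited PLIER signal of every array for the probesets of Ifi202b, Ifi204 and Mnda in order of position, in blue for wildtype and red for KIS-ko, with short bars for the mean of 6 arrays. The axis is logarithmic above 10 and linear below, and the dashed line is the median intron control of 114. In Ifi202b only probeset 8 has all red points above the blue ones, and in Mnda only probeset 10 has all of them below.

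Whether the rest of the interferon response moved was asked on genes outside the cluster. Of 54 listed response genes, 48 had a gene value, and limma called 0 of them (lowest adjusted p = 0.685). At an unadjusted p of 0.05 there were 3, where the share over all genes was 6.16%. The same share applies to the unadjusted counts of the lists below. The median difference of the 48 genes was -0.029, close to the -0.036 of all genes. Of them 32 were lower and 16 higher, where 69.8% of all genes were lower. The largest differences were those of Eif2ak2, the RNA-activated kinase PKR, and of Ifi44. Eif2ak2 had a difference of -0.19 with a standard error of 0.070, and 5 of 6 litters shared this sign (limma, adjusted p = 0.685). Ifi44 had one of 0.18 with a standard error of 0.076, again in 5 of 6 litters (limma, adjusted p = 0.685). Ifitm2, Parp14 and Mx2 had differences of -0.12, -0.11 and -0.11. The mean over the list was -0.025 ± 0.092 (SD, n = 6 litters), negative in 3 of the 6 (two-sided exact permutation test by sign flips, p = 0.531). With the arrays centred on their medians this mean was 0.031, and the means of the pathway, DNA sensing and microglial genes also turned positive.

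The pathway above these genes was measured by 12 genes for ligands, receptors, kinases, inhibitors and the transcription factor Irf3, of which limma called 0 (0 unadjusted). Socs1, an inhibitor of the kinases, and Ifnar2, a chain of the type I receptor, had the largest differences, 0.17 and -0.13. The list mean was -0.0071 ± 0.062 (SD, n = 6 litters; exact permutation test, p = 0.781). Of a list of genes for DNA sensing and the inflammasome, which also held the growth control genes Rb1 and Trp53, 12 of 14 had a value and 0 were called by limma, with 1 at an unadjusted p of 0.05. Tbk1, the kinase downstream of STING, had a difference of -0.15 and Trex1, a DNA-degrading exonuclease, one of -0.14. For Pycard, the adaptor of Aim2, the difference was 0.070 with a standard error of 0.070 (limma, adjusted p = 0.729). The mean of these genes was -0.029 ± 0.065 (SD, n = 6; exact permutation test, p = 0.344).

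Microglia and other macrophages are cells of the brain in which p200 genes are known to be active, so their markers were set beside the family. Of 22 markers 21 had a value, limma called 0 (1 unadjusted), and their median difference was -0.030. The mean gene value of the list ran from 8.34 to 8.498 in wildtype and from 8.29 to 8.48 in KIS-ko brains. Its mean difference was -0.034 ± 0.076 (SD, n = 6 litters; exact permutation test, p = 0.344). P2ry13, a purinergic receptor of microglia, had the largest difference, -0.19, followed by the lysosomal protein gene Cd68 with -0.13.

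**Figure D4:**
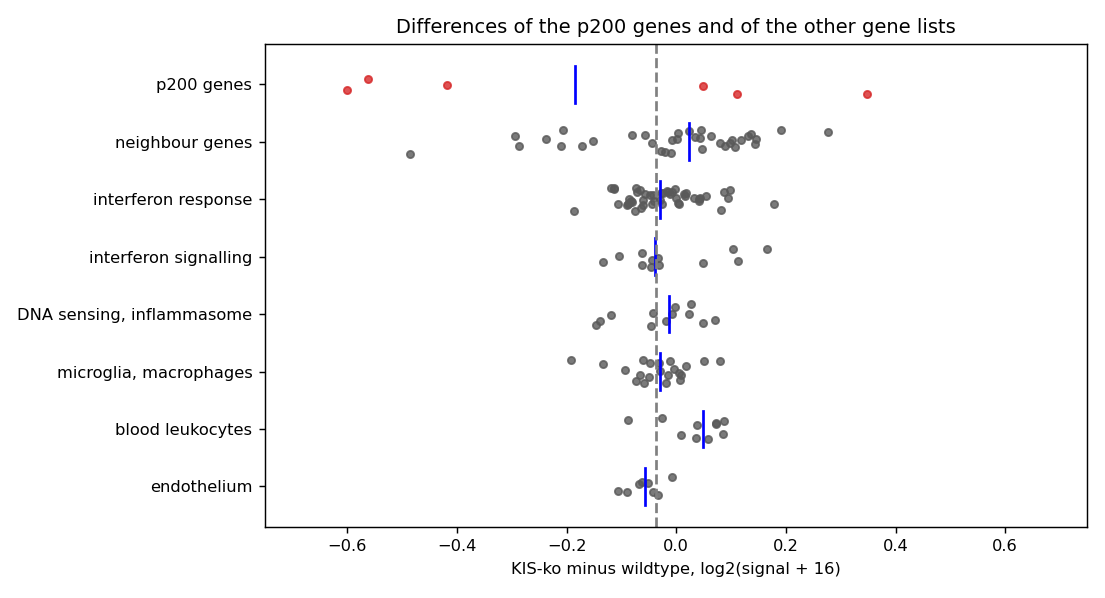
KIS-ko minus wildtype difference of each gene on the log2(signal + 16) scale for the p200 genes (red) and the other lists (grey), with a blue line for the median of each list and a dashed line for the median of all genes at -0.036. The p200 genes, singled out by this difference, reach from -0.60 to 0.35, the neighbours from -0.49 to 0.28, and the interferon, DNA sensing and microglial genes from -0.19 to 0.18.

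Genes next to the cluster were taken from 1 Mb below its first to 1 Mb above its last probeset, which gave 36 other symbols, 35 of them with a gene value. Limma called 0 of them (lowest adjusted p = 0.199), with 8 of the 35 at an unadjusted p of 0.05, 5 lower and 3 higher, where the share over all genes was 6.16%. Their median difference was 0.023 and the range went from -0.49 to 0.28. The lowest value was that of the olfactory receptor gene Olfr427, at -0.49 with a standard error of 0.074, and all 6 litters shared this sign (limma, adjusted p = 0.199). Its probesets were dim, with a median signal of 43.3. Fmn2, which encodes an actin-nucleating formin and was bright with a median signal of 1222, had a difference of -0.29 with a standard error of 0.060, also in all 6 litters (limma, adjusted p = 0.449). The transcript 1810030J14Rik had one of 0.28 with a standard error of 0.057, positive in 6 litters (limma, adjusted p = 0.449), and was the only neighbour without overlap between genotypes, where 0.0868% of all genes lay wholly above. Olfr218 and Olfr433 differed by -0.29 and -0.24. The family member Pyhin1, with 1 of 2 probesets kept, lay at 0.023 ± 0.41 (SD, n = 6). BC094916, listed at about the same position, had a difference of -0.21 with a standard error of 0.083, lower in 5 of 6 litters (limma, adjusted p = 0.685). Of the 35 neighbours 15 were lower and 20 higher, where 69.8% of all genes were lower.

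Variation between litters was compared within genotypes, which does not use the difference between them. Over the 6 litters, the value of a wildtype brain and that of its KIS-ko littermate gave no relation that passed the test in any of the 6 members. Pearson's r lay between -0.766 for Aim2 (p = 0.065 by exact permutation; rho of Spearman -0.771, p = 0.103) and 0.465 for Ifi203 (p = 0.332 by exact permutation; rho 0.486, p = 0.356). After adjustment for the 6 relations the lowest p was 0.392 for Pearson's r and 0.617 for Spearman's rho by the same exact permutation test. Without the 2 litters farthest from the wildtype median, r was -0.496 for Aim2, 0.723 for Ifi204, -0.849 for Mnda, -0.733 for Ifi203, 0.484 for Ifi202b and -0.793 for Ifi205, and the sign of Ifi204, Ifi203, Ifi202b and Ifi205 turned.

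The genes whose values followed those of a member most closely over the 12 arrays were listed as a description, since the arrays share the genotypes. For Ifi204 these were Kdm4d (Pearson r = 0.947), Mnda itself (0.903) and Gins3 (0.901). For Mnda they were Fcgr2b (0.925), which also lies on chromosome 1, Bace2 (0.924) and Mobkl1b (0.906). For Ifi203 they were Pole2 (0.948), Glt25d2 (0.931) and Dusp12 (0.927), the last pair on chromosome 1. For Ifi202b they were Svs6 (0.821), Usf1 (0.805), on chromosome 1, and Tmem27 (0.772). For Aim2 they were Xpa, Smc3 and Myst4 (0.829 to 0.797), and for Ifi205 Tmem158, Olfr1276 and Rag1 (0.838 to 0.820). Between the members themselves, r was taken within each genotype, over 6 arrays. Among Ifi204, Mnda and Ifi203 it ran from 0.372 to 0.732 in wildtype and from 0.768 to 0.956 in KIS-ko brains. Of the 19 kept probesets of these genes, 11 are open to cross-hybridization, so that their values may not come from separate transcripts. Between these genes and Ifi202b, r ran from -0.182 to 0.511 in wildtype and from -0.569 to -0.300 in KIS-ko brains. The values of r over all 12 arrays hold the difference between genotypes for which the genes were singled out.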

How the data were processed

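Brain RNA of 6 wildtype and 6 KIS-ko newborns was measured on 1 array each. In the processing by the authors, Expression Console of Affymetrix applied a quantile normalization and PLIER turned probes into probeset signals. The deposited intensity is this linear signal and was used as it stands. Groups and litters come from the labels, and the methods describe the brains as pairs of littermates. Deviations of littermates from the means of their groups correlated with r = 0.272, -0.059, 0.136, -0.11, 0.473 and -0.11 in the 6 litters, and the litter was held as a block because the labels and the methods give it. No pair of arrays was identical. The number of arrays limits the precision.

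Main probesets with a symbol were used, less those whose SD within a genotype exceeded 0.4 of the mean (15948, or 7.20%). The gene value was the mean of log2(signal + 16). The test across genes was that of limma 3.58.1 (R 4.3.3), with moderated variances and Benjamini-Hochberg adjustment over 17279 genes, and checked on simulated data. For list means an exact permutation test flipped the signs of the litters, and its p cannot fall below 0.0312. Other steps used Python 3.11.15, numpy 2.4.6, pandas 2.3.3, scipy 1.17.1 and matplotlib 3.10.9. The p200 genes, the lists and the tests were chosen with earlier results of these data known. The text names all members, Uhmk1, the 5 genes of largest difference among neighbours and among interferon response genes, and the 3 genes most like each member. It also names 2 from each of the interferon signalling, DNA sensing and microglial lists. Pycard, Pyhin1, BC094916, Jak1, Tyk2, Irf3, Rb1, Trp53, S100a8, Mpo, Stmn2 and Snap25 were named outside this rule. Alternatives were no litter block, pseudocounts of 1 and 64, no filter on spread, dim probesets left out, centring, a new quantile normalization, probesets matching 1 place, the median over probesets, the methods' weighted fold change, with ratios formed here within litters, and each litter left out. Probesets above the median intron control, the places of Mnda taken singly, and Ifi202b without its probeset of highest position were chosen after seeing the data.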

Additional observations from a re-analysis of the deposited data

How the results depend on the processing

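Ifi204, Mnda and Ifi203 stayed lower and Ifi202b and Ifi205 higher under every setting that gave a value, while Aim2 changed sign within its spread. With 1 litter left out at a time the differences ran from -0.71 to -0.55 for Ifi204, from -0.67 to -0.48 for Mnda, from -0.45 to -0.37 for Ifi203, from 0.30 to 0.39 for Ifi202b, from 0.075 to 0.15 for Ifi205 and from -0.072 to 0.14 for Aim2. The methods' weighted ratio, taken as log2, gave Ifi202b 0.53, on probesets that were all below the median intron control. Probesets above that control by their mean over all arrays gave Ifi204 -1.01 and Ifi205 0.37, each from a single probeset. That of Ifi204 passed only through its wildtype mean and that of Ifi205 only through its KIS-ko mean, so these values are no independent support. A pseudocount of 64 shrank the differences, to -0.38 for Ifi204, -0.27 for Ifi203 and 0.23 for Ifi202b. With dim probesets left out, only Mnda of the 6 genes kept a value. It rested on a single probeset that passed through its wildtype mean of 876, since its KIS-ko mean of 615 was below the cutoff. This value is therefore no independent support.
Without the litter as a block limma called 1 gene, as with it, and the differences are the same by construction. It called 2 genes with a pseudocount of 64, 2 without the filter on spread, 5 with dim probesets left out, where 11425 genes were tested, and from 1 to 2 with 1 litter left out, the 2 being without litter 3. The second gene was then Ifi204, which had been singled out on this contrast, so that its call is no independent evidence. Unadjusted calls ran from 550 without litter 6 to 3913 without litter 4. No list gene or neighbour was called under any setting. List means changed sign with the scaling of the arrays. Centred on their medians, the means were 0.031 for interferon response, 0.049 for interferon signalling, 0.027 for DNA sensing, 0.022 for microglia and 0.044 for neighbours, and the median of all genes was 0.020. After a new quantile normalization they were 0.015, 0.032, 0.0085, 0.012 and 0.020. Interferon signalling was 0.0012 with the median over probesets, microglia 0.0012 and neighbours 0.043 without dim probesets, and neighbours 0.0020 without the filter on spread. With 1 litter left out the means ran from -0.045 to 0.0025 for interferon response, from -0.019 to 0.011 for interferon signalling, from -0.052 to -0.012 for DNA sensing, from -0.056 to -0.013 for microglia and from -0.036 to 0.024 for neighbours. With 5 litters p cannot fall below 0.0625, so that the means without a litter could not pass the test. The causes of the changes in sign were not tested.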

Other observations

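Markers of other cells that a whole newborn brain can hold were also measured, and limma called none of them, adjusted or unadjusted. Over all genes, 6.16% were called unadjusted, 69.8% were lower and the median difference was -0.036. Of 10 markers of blood leukocytes, among them the granulocyte genes S100a8 and Mpo, 8 were higher and 2 lower, with a median difference of 0.048 and a list mean of 0.035 ± 0.19 (SD, n = 6 litters; exact permutation test, p = 0.656). Of the 10, 0 exceeded the 95th percentile of intron controls by their median signal. Of the 8 endothelial markers all were lower, with a median of -0.058 and a mean of -0.058 ± 0.14 (SD, n = 6; exact permutation test, p = 0.438), lower in 3 of 6 litters. The 5 measured erythroid markers had a median of 0.017 and the 7 neuronal ones a median of -0.035. Other scalings of the arrays were not run for these 4 lists.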
